A study of Homo sapiens with 8 samples.

Results

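A498 is a cell line grown from a human kidney carcinoma. It was sequenced here as 1 pair of libraries, 1 untreated and 1 cultured with interferon-gamma (IFN-gamma) at 20 ng/ml for 72 hours, both in RPMI medium with 10% serum. The pair was taken by its labels and makes up 2 of the 8 libraries in the study. The other 6 are the same pair of cultures from A375 (skin cancer) and of 549 and H1703 (each lung cancer in origin), and they are used here as context. Each line is a single established line, no library has a replicate culture, and no group carries an engineered allele. Of 24462 gene symbols, 11872 had at least 50 counts in the A498 pair and are called measured. The untreated A498 library held 6750962 counts and the treated one 8149074, within a range of 6559933 to 9291154 over all 8 libraries.

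IFN-gamma is a cytokine of T cells and natural killer cells. It binds the receptor chains IFNGR1 and IFNGR2, and the kinases JAK1 and JAK2 then activate transcription factors that bind gamma-activated sites (GAS) in DNA. IRF1 and complexes that hold IRF9 act on interferon-stimulated response elements (ISRE). In epithelial cancer cells this program is known for antigen presentation, T cell-attracting chemokines, the checkpoint ligand PD-L1 and tryptophan breakdown. As background, A498 is widely used as a model of clear cell kidney carcinoma, in which loss of VHL commonly keeps hypoxia-inducible factors active.

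Kidney lineage markers were present in both A498 libraries. The tubule transcription factor PAX8 had 1552 counts untreated and 2097 treated, PAX2 had 234 and 339, and LHX1 had 270 and 253. Another 2 markers were low: the cadherin CDH16 had 23 and 47 counts, and the hypoxia target CA9 had 22 and 25. None of the 8 lung markers and none of the 16 leukocyte markers was measured, and 11 of the leukocyte markers were at 0 in each library. The leukocyte marker PTPRC had 4 counts untreated and 0 treated. Of 8 melanocyte markers MITF alone was measured, with 370 and 176 counts, and of 9 fibroblast and endothelial markers ACTA2 alone, with 236 and 225.

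Promoters of 4 genes with very different counts in the A498 pair are printed because they hold the letters of GAS, ISRE or both. CXCL10 and CXCL11 encode chemokines, IFITM1 a membrane protein that restricts virus entry, and IFNL1 a type III interferon. Each window runs from 250 bases before to 50 after the RefSeq transcription start in GRCh38.p14. The windows are chr4:76023448-76023747 on the minus strand for CXCL10 and chr4:76036021-76036320 on the minus strand for CXCL11. They are chr11:313790-314089 on the plus strand for IFITM1 and chr19:39296157-39296456 on the plus strand for IFNL1. Sequences read 5′ to 3′ along the gene. Capitals mark matches to GAS, TTCNNNGAA, which is its own reverse complement, and to ISRE, GAAANNGAAA or TTTCNNTTTC on the other strand. In IFITM1 the GAS match overlaps the second ISRE match, and in IFNL1 the pair of ISRE matches overlap.
CXCL10: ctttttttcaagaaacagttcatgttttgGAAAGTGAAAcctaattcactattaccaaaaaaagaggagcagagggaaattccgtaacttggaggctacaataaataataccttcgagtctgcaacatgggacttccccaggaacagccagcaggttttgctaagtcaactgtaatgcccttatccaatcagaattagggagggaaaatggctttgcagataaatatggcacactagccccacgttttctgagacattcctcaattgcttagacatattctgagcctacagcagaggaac
CXCL11: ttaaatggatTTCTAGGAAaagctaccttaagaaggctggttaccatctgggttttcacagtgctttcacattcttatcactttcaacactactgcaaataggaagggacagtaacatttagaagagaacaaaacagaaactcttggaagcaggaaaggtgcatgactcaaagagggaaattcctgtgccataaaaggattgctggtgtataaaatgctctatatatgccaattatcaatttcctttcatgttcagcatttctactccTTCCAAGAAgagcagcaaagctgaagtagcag
IFITM1: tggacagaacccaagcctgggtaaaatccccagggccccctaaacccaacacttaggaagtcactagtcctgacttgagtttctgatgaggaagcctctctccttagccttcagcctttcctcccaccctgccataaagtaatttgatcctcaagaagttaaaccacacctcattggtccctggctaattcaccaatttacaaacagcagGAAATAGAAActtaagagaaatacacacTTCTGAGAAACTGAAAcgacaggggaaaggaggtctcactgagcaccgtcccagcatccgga
IFNL1: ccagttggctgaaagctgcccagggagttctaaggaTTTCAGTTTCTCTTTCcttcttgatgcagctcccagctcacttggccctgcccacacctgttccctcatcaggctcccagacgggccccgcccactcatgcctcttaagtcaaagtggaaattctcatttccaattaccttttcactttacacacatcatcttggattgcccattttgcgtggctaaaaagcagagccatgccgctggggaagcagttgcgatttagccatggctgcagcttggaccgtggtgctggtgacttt

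The ISRE letters were in 3.65% of all 27305 promoters and the GAS letters in 7.94%. Among measured A498 genes with a promoter in the table, 9484 of 11872, the shares were 2.98% for ISRE and 6.21% for GAS. Genes at least 2-fold higher with IFN-gamma had ISRE in 10.4% and GAS in 9.11% (867 of 1187 matched). At 4-fold or more the shares were 24.6% and 12.1% (256 of 359 matched), and at 16-fold or more 44.4% and 14.3% (63 of 87 matched). Genes at least 2-fold lower had ISRE in 1.43% and GAS in 4.46% (560 of 703 matched). The ISRE share was thus larger at each higher fold limit, and the GAS share moved over a narrower range. A match describes letters in this window and does not show binding. Of the 20 highest genes 17 had a promoter in the table, of which 8 held ISRE, 3 held GAS and 2 held both.

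The first comparison asks which transcripts differed between the treated and the untreated A498 library. With 1 library in each arm there is no test, so a gene is called higher or lower when its library-scaled count (CPM) differs at least 2-fold, a log2 ratio of 1 or more in size. Of 11872 measured genes, 1187 were higher (10%) and 703 lower (5.92%). A gene with under 50 counts in 1 library can be measured through the other alone, which favours a call in that direction. At 4-fold the counts were 359 higher and 84 lower, and at 16-fold 87 higher and 1 lower, so the large differences lay almost entirely on the higher side. The median log2 ratio over all measured genes was -0.01, and the 5th and 95th percentiles were -1.07 and 1.53. Scaled by library size alone, that median was -0.11 and the calls were 1013 higher and 919 lower, so the higher share of calls was 52.4% in place of 62.8%. With upper quartile scaling it was 54.8%. Near the limit, RFX5 (244 and 549 counts, log2 ratio 1.00) counted as higher and TRIM5 (227 and 507 counts, 0.99) did not.

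**Figure D1:**
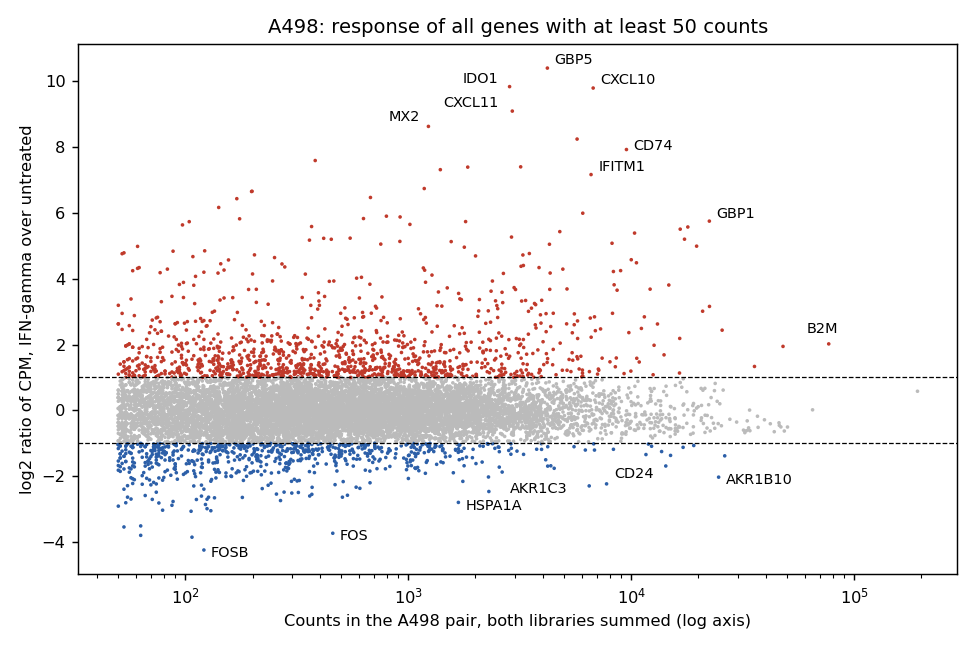
Each point is 1 of the 11872 measured genes, placed by its summed counts in the A498 pair (log axis) and its log2 ratio of CPM, IFN-gamma over untreated; red points are at least 2-fold higher, blue points at least 2-fold lower, and dashed lines mark the limits. The higher side reaches a log2 ratio of 10.40 (GBP5) and the lower side -4.24 (FOSB).

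The largest ratio was that of GBP5, a guanylate-binding protein of cell-intrinsic defence. It had 1 count untreated and 4201 treated. That is 3738-fold per scaled count, with an exact 95% counting interval from 670.5 to 147700, and a log2 ratio of 10.40 with the prior count of 2 that all log2 ratios here carry. All such intervals cover counting error only and say nothing of the spread between cultures. IDO1, the enzyme that starts tryptophan breakdown, had 1 and 2843 counts, a ratio of 2530 with an interval from 453.6 to 99950. Untreated A498 thus held almost no transcript of either gene. UBD, a ubiquitin-like modifier, had 15 and 3174 counts, a 188.3-fold ratio (114.0 to 336.8). ADAP1, an ARF GTPase regulator, had 0 and 199 counts, at least 59.0-fold higher when 3 counts stand for the untreated 0. BATF2, an AP-1 family partner, had 5 and 671 counts and a ratio of 119.4 (50.91 to 368.9). In bulk RNA, more cells carrying a transcript and more transcript per cell cannot be told apart.

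**Figure D2:**
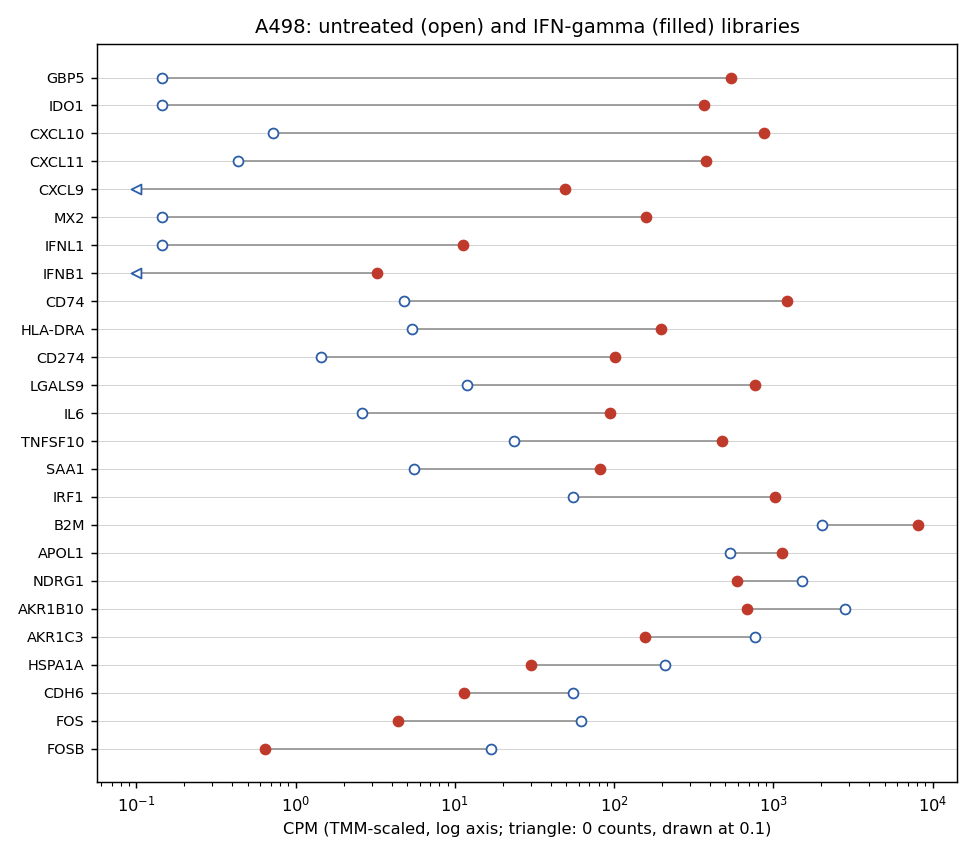
CPM of selected genes in the untreated (open) and IFN-gamma (filled) A498 library on a log axis, 1 library each; a triangle stands for 0 counts. GBP5 spans from 1 to 4201 counts, B2M from 13831 to 62983, and the genes from NDRG1 down are lower in the treated library.

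Among the receptor chains and kinases, 1 of 7 measured members was higher (14.3%, against 10% of all measured genes) and 0 lower. Their median log2 ratio was -0.03. IFNGR1, the ligand-binding chain, had 96 counts untreated and 148 treated, and IFNGR2 had 403 and 444. JAK1 had 1719 and 1828. None of these differed 2-fold. The member that did was JAK2, with 66 and 654 counts, an 8.82-fold ratio (6.84 to 11.5). Its log2 ratio of 3.11 lay above those of A375 (2.22), H1703 (1.29) and 549 (0.87).

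Of 12 measured STAT, IRF and partner transcription factors, 11 were higher and 0 lower, with a median log2 ratio of 2.79. IRF1 had 378 counts untreated and 7933 treated (18.7-fold, 16.8 to 20.8). STAT2 had 132 and 1570 counts, IRF9 had 121 and 629, and IRF7, a driver of type I interferon transcription, had 93 and 1401. These were all several-fold higher in the treated library. The nuclear body proteins SP100 and SP110 had 850 and 7383, and 331 and 4815. STAT3, at 1091 and 1714, was the member short of 2-fold. IRF8 had 0 and 2 counts and was not measured.

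Feedback inhibitors were mostly within 2-fold, with 2 of 11 measured members higher, 0 lower and a median of 0.34. The higher share was 18.2%, against 10% of all measured genes. USP18 removes ISG15 from proteins and dampens type I interferon receptor signalling. It had 48 counts untreated and 1734 treated, a 32.1-fold ratio (24.1 to 43.8). Its log2 ratio was 4.96 in A498 against 1.92 in H1703, 1.61 in A375 and 0.20 in 549. SOCS1, the JAK inhibitor, had 12 and 234 counts (17.4-fold, 9.75 to 34.1). SOCS3, at 475 and 981, and PTPN2, at 164 and 336, were higher in the treated library by less than 2-fold.

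All 6 measured guanylate-binding proteins were higher, with a median log2 ratio of 5.96. GBP4, GBP5 and GBP7 were measured only through their treated counts, which favours a call of higher. GBP1 had 363 counts untreated and 22023 treated (54.0-fold, 48.7 to 60.1), and GBP4 had 15 and 5696 (337.9-fold, 204.7 to 604.1). GBP2 had 202 and 4122, GBP3 had 92 and 1272, and GBP7 had 0 and 141. The treated library was the high one each time. The summed CPM of the list was 97.9 untreated and 4840 treated in A498, and 537 to 604 in the other treated libraries. GBP genes resemble each other, so reads can be shared among them.

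Of 51 antiviral interferon-stimulated genes, all measured, 49 were higher and 0 lower, with a median log2 ratio of 3.68. Among those measured only through their treated counts were MX2, RSAD2, CMPK2, RTP4, IFITM1 and ISG20. The medians of the same genes were 2.67 in A375, 2.86 in 549 and 2.28 in H1703. Their summed CPM in A498 was 2490 untreated and 32000 treated. Treated sums were 8020 in A375, 6630 in H1703 and 2970 in 549. A498 had the highest ratio of the 4 lines for 32 of the 51, while over all measured genes it was highest for 21% (2499 of 11872). Among the 44 with at least 20 counts in every other pair it was highest for 26, against 19.9% of all such genes. It was the lowest for 6 of the 51, namely IFI44L, UBE2L6, TRIM22, BST2, IFI44 and UBA7.

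IFITM1 had 39 counts untreated and 6558 treated in A498, a 149.6-fold ratio (109.3 to 210.6). Its promoter is the one printed with overlapping GAS and ISRE letters. In A375 it had 575 and 3938 counts, in H1703 907 and 2945, and in 549 2 and 29. A498 thus started from fewer counts than A375 and H1703 and ended with more. MX2, which blocks nuclear entry of some viruses, had 1 and 1229 counts in A498 (1094-fold, 195.9 to 43230), a log2 ratio of 8.62. In A375 it was already at 1030 counts untreated and had 859 treated, and 549 and H1703 held 0 to 5. RSAD2 (viperin) had 8 and 1838 counts, and CMPK2, its neighbouring gene, had 8 and 1170. CMPK2 did not have its highest ratio in A498, with log2 ratios of 6.74 in A498 and 6.94 in H1703.

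The tetratricopeptide proteins IFIT1, IFIT2 and IFIT3, which bind viral RNA, had 95 and 4682, 214 and 10126, and 328 and 17594 counts. IFIT1 had a log2 ratio of 5.43 in A498 against 1.46 to 2.63 elsewhere, while IFIT3, at 5.57, lay below 549 at 6.05. The RNA sensors DDX58 (RIG-I) and IFIH1 (MDA5) had 358 and 9635, and 111 and 4182 counts. ISG20, an exonuclease, had 28 and 1778 counts (56.5-fold, 39.0 to 85.3), with log2 ratios of 5.73 in A498 and 1.34 to 2.87 in the other lines. IFI44L had the opposite pattern. It had 786 counts in untreated A498 against 2, 0 and 1 in untreated A375, 549 and H1703. Its treated A498 count of 11356 exceeded the other treated counts of 216, 54 and 311, although its log2 ratio of 3.68 was the lowest of the 4.

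**Figure D3:**
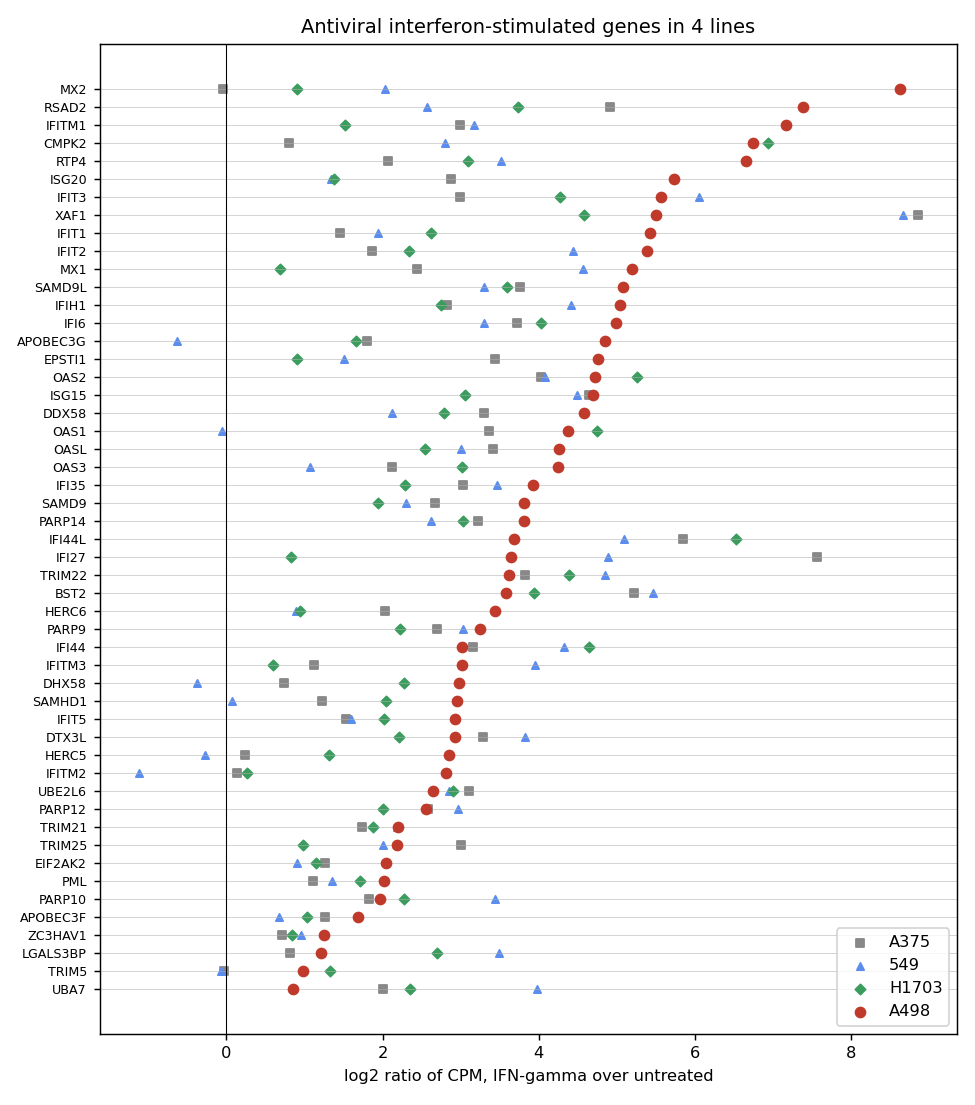
log2 ratio of CPM, IFN-gamma over untreated, of the 51 antiviral genes in each line (1 pair of libraries a line), ordered by A498 (red circles). A498 is the rightmost point for 32 genes and the leftmost for 6, and MX2 shows a wide distance between A498 (8.62) and A375 (-0.04), where it had 1030 untreated counts.

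Interferon genes themselves were looked at after their values had been seen. IFNL1 had 1 count in untreated A498 and 87 in treated A498, a ratio of 77.4 with an interval from 13.5 to 3092. The other treated libraries held 2, 3 and 0 counts of it. IFNB1, the main type I interferon of epithelial cells, had 0 and 25 counts in A498 and 0 in each of the 6 other libraries, so it was at least 7.41-fold higher against 3 counts. IFNL2 had 0 and 26 and IFNL3 had 0 and 8, and these genes are near-identical, so their reads can be shared. IFNG and IFNA2 had 0 counts in both A498 libraries. IFNE, a type I interferon of epithelia, had 16 and 8 counts and IFNA1 had 1 and 0. IFNL1, IFNL2, IFNL3 and IFNB1 thus had their counts in the treated library but for 1, and IFNE and IFNA1 did not. Whether they had a part in the antiviral ratios was not tested.

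Class I antigen presentation was higher as well, with 17 of 21 measured members higher, 0 lower and a median log2 ratio of 2.02. B2M, the invariant light chain, had 13831 counts untreated and 62983 treated, a 4.05-fold ratio (3.98 to 4.13). HLA-B had 3607 and 21935 counts (5.41-fold, 5.22 to 5.61). NLRC5, the class I transactivator, had 61 and 1215, the peptide transporter subunit TAP1 had 186 and 2794, and the immunoproteasome subunit PSMB9 had 262 and 2959. A498 had the lowest ratio of the 4 lines for 9 of the 21 members, while it was lowest for 26% of all measured genes. Among the 9 were B2M (2.02 against 2.90 to 3.70) and HLA-B (2.44 against 3.46 to 4.24). The summed CPM of the list in untreated A498 was 5860, above the 2580 to 5050 of the other untreated libraries. With IFN-gamma it was 19700 in A498, between 16500 in H1703 and 23200 in A375. CALR, PDIA3 and CANX, chaperones of the loading complex, lay within 2-fold. HLA genes are polymorphic and alike, so counts of single HLA genes are uncertain, although all 16 measured genes with HLA symbols were higher.

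Class II presentation had 13 of 16 measured members higher, 0 lower and a median of 3.55. CD74, HLA-DRA, HLA-DPA1, HLA-DPB1 and HLA-DRB5 were among those measured only through their treated counts, which favours a call of higher. Over all 16 the medians were 2.42 in A375, 0.79 in 549 and 0.75 in H1703. For the 7 with at least 20 counts in every other pair the median was 1.77, against 0.50 in A375, 0.34 in 549 and 0.53 in H1703. That limit leaves out CD74, HLA-DRA, HLA-DPA1 and HLA-DRB1, which had log2 ratios of 5.15, 3.75, 3.65 and 4.82 in A375. CD74, the invariant chain, had 33 counts untreated and 9476 treated (255.5-fold, 181.8 to 371.4). HLA-DRA had 37 and 1519, HLA-DPA1 had 12 and 906, and HLA-DRB1 had 64 and 2837. Class II chains were thus low in untreated A498 and far more abundant after treatment. CIITA, the class II transactivator, had 11 and 152 counts, a log2 ratio of 3.42 against 6.10 in A375. The endosomal proteins CTSS and IFI30 had 279 and 4028, and 460 and 4005. HLA-DQB1, with 1 and 48 counts, was just under the limit for measured genes. The summed class II CPM was 225 and 3260 in A498, against 550 and 5940 in A375 and 392 or less in treated 549 and H1703.

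Of 10 measured chemokines, 9 were higher and 0 lower, with a median of 3.55. CXCL9, CXCL10, CXCL11, CXCL1, CX3CL1 and CXCL8 were measured only through their treated counts, which favours a call of higher. Only 5 of them had at least 20 counts in every other pair. For these the median was 2.83, against -0.24 in A375, 0.73 in 549 and 1.49 in H1703, and A498 had the highest ratio for 4. CXCL10, a ligand of CXCR3 on T cells, had 5 counts untreated and 6738 treated (1199-fold, 513.5 to 3694). CXCL11 had 3 and 2922 (866.6-fold, 296.2 to 4205), and CXCL9 had 0 and 382, at least 113.0-fold higher. All 3 CXCR3 ligands were at 5 counts or fewer before treatment. CX3CL1 had 21 and 895 counts and the monocyte attractant CCL2 had 222 and 2428. CCL2 had a log2 ratio of 3.27 in A498 against -0.39 in A375 and -0.53 in 549. CCL5 was an exception to the order of lines, at 2.76 in A498 and 4.24 in 549. The neutrophil attractants CXCL1, CXCL2 and CXCL8 had 4 and 90, 68 and 556, and 34 and 170 counts.

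Among NF-kB genes, cytokines and adhesion molecules, 15 of 18 measured members were higher and 0 lower, with a median of 1.65. TNFSF13B and IL6 were among those measured only through their treated counts. TNFSF13B (BAFF), a B cell survival factor, had 6 counts untreated and 1385 treated (205.4-fold, 94.1 to 560.6). IL6 had 18 and 734 (36.3-fold, 22.8 to 61.6), and the other 6 libraries held 0 to 4 counts of it, too few for a ratio to be compared. TNFSF10 (TRAIL), a death ligand, had 161 and 3694 counts, a log2 ratio of 4.34. The other lines held few counts of it, with 4 and 0 in A375, 8 and 16 in 549 and 12 and 26 in H1703. TNFAIP3, a brake on NF-kB, had 66 and 1128. The adhesion molecules ICAM1 and VCAM1 had 237 and 2279, and 601 and 3548. VCAM1 had a log2 ratio of 2.39 in A498 and 0 to 8 counts in each other library. TNF itself had 0 and 1 count.

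Checkpoint and costimulatory ligands had 9 of 13 measured members higher, 0 lower and a median of 1.41. CD274 and PDCD1LG2 were among those measured only through their treated counts. CD274, which encodes PD-L1, had 10 counts untreated and 787 treated in A498 (70.0-fold, 37.9 to 146.6). PDCD1LG2 (PD-L2) had 4 and 94. LGALS9, a galectin that binds TIM-3, had 82 and 5974 (64.8-fold, 52.1 to 81.6), with log2 ratios of 5.99 in A498, 3.35 in H1703 and -0.55 in 549. A375 held 3 and 5 counts of it. Its copy LGALS9C, at 0 and 170 counts, may hold LGALS9 reads. The don't-eat-me signal CD47 had 521 and 2622 counts. CD276 (B7-H3) stayed near its untreated level, at 557 and 691, and CD80 and CD86 had 0 counts in both libraries.

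Of 23 measured cell death effectors, 17 were higher and 0 lower, with a median of 1.5. CASP1 and AIM2 were among those measured only through their treated counts. CASP1, the inflammasome caspase, had 8 counts untreated and 409 treated, the DNA sensor AIM2 had 4 and 117, and MLKL, the necroptosis executor, had 136 and 803. RIPK3 and PYCARD, partners of MLKL and CASP1, had 0 counts in both libraries. APOL1, an apolipoprotein of innate defence, had 3707 and 8818 counts in A498. Untreated A375, 549 and H1703 had 34, 115 and 26 counts of it, and treated ones 552, 1206 and 487. Untreated A498 thus had more APOL1 counts than any other line reached with IFN-gamma, and its log2 ratio of 1.08 lay below 3.54 to 4.15 in the others.

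Of 15 measured complement genes, 9 were higher and 0 lower (median 1.19). SERPING1, CFB, C4A and C4B were among those measured only through their treated counts. C3 had 164 and 1919 counts, C1R had 343 and 3114, the C1 inhibitor SERPING1 had 11 and 537, and CFB had 15 and 330. C4A and C4B are near-identical and their counts are uncertain. Of 18 listed acute phase and secreted defence genes 6 were measured, and 5 of these were higher (median 2.96). For the 2 with at least 20 counts in every other pair the median was 1.13, against 0.76 in A375, -0.03 in 549 and 1.27 in H1703. PTX3, a soluble pattern receptor, had 7 and 353 counts. The serum amyloid genes SAA1 and SAA2, which can share reads, had 38 and 634, and 5 and 199. PTX3, SAA1 and SAA2 passed the limit for measured genes only through their treated counts. PTX3 had log2 ratios of 5.17 in A498 and 2.24 in A375, and the lung lines held 0 or 1 count of it in each library.

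In the tryptophan pathway 4 of 11 measured genes were higher (36.4%) and 2 lower (18.2%), against 10% and 5.92% of all measured genes. WARS, which charges tRNA with tryptophan, had 402 counts untreated and 10141 treated (22.4-fold, 20.3 to 24.9), and the kynureninase KYNU had 443 and 1314. KMO, which hydroxylates kynurenine, had 719 and 267, and AFMID, which makes kynurenine from its formyl form, had 171 and 60. Enzymes of the one pathway thus lay in both directions. CYP1B1, a target of the aryl hydrocarbon receptor, had 1082 and 1541 counts, a log2 ratio of 0.34 against 3.13 in A375.

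Amino acid and unfolded protein stress genes had 10 of 17 members higher (58.8%) and 1 lower (5.88%), against 10% and 5.92% of all measured genes. Their median was 1.22, against 2.05 in A375, 1.40 in 549 and -0.07 in H1703. CHAC1, a glutathione-degrading enzyme, had 126 counts untreated and 1287 treated, ATF3 had 415 and 3497, and the asparagine synthetase ASNS had 546 and 2733. These are known targets of ATF4, itself at 1976 and 5169. The endoplasmic reticulum chaperone HSPA5 lay within 2-fold, at 5709 and 7824, and DNAJB9 was lower, at 120 and 63. Of 19 p53 targets 6 were higher (31.6%) and 2 lower (10.5%), against 10% and 5.92% of all measured genes, and the median was 0.11. PMAIP1 (NOXA) had 430 and 3715 counts and GDF15 had 9004 and 38899, while ZMAT3 had 733 and 332.

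**Figure D4:**
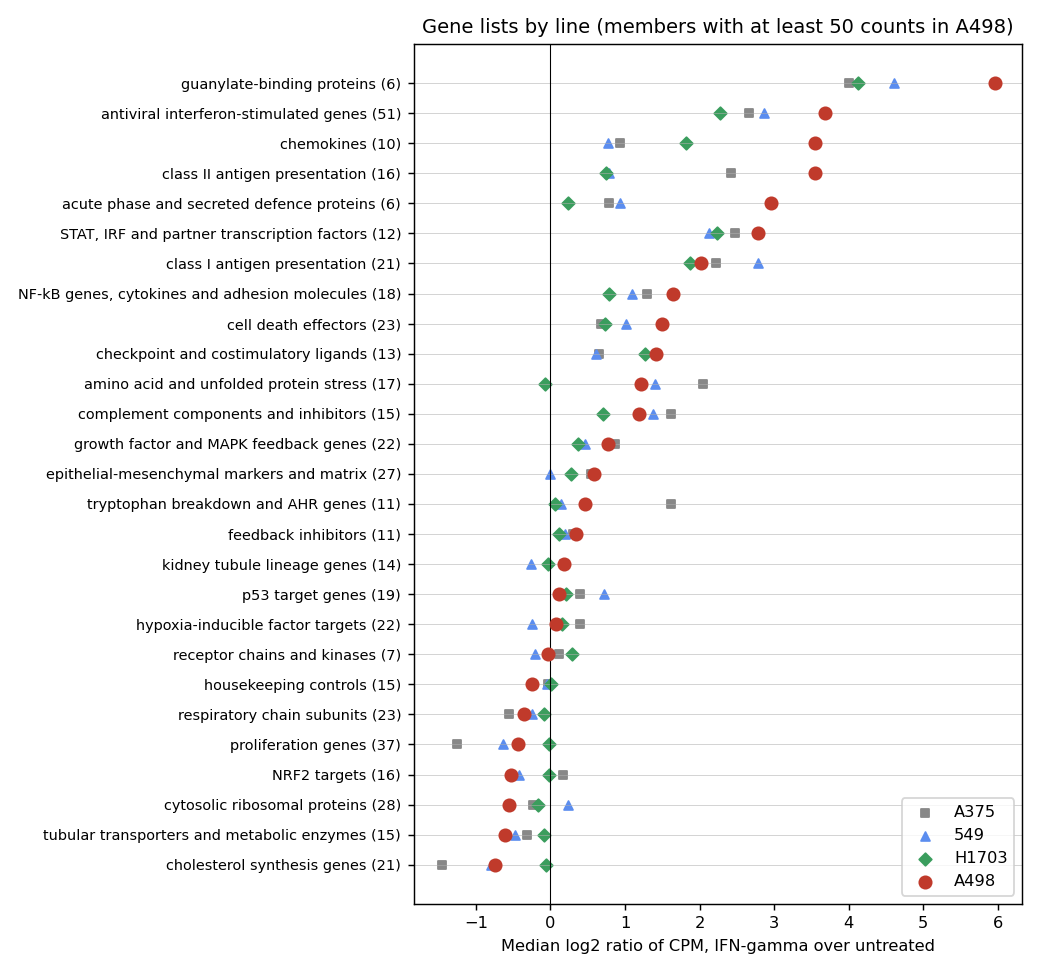
Median log2 ratio of CPM, IFN-gamma over untreated, of each gene list in each line; numbers in brackets are list members with at least 50 counts in the A498 pair, whatever their counts in the other lines. A498 (red circles) is rightmost, among others, for guanylate-binding proteins (5.96), antiviral genes (3.68), class II presentation (3.55) and chemokines (3.55), and leftmost, among others, for cytosolic ribosomal proteins (-0.55).

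Fewer genes were lower, and by less. The lowest ratio was that of FOSB, with 116 counts untreated and 5 treated, 0.0384 of the untreated level (0.0122 to 0.0921). FOS, of the same family of AP-1 subunits, had 424 and 34 counts, 0.0714 of the untreated level (0.0488 to 0.101). The log2 ratio of FOS was -3.73 in A498 and -0.44 to -1.61 in the other lines. In a list of 18 immediate early and heat shock genes chosen after their values were seen, 3 were higher and 6 lower. These are 16.7% and 33.3%, against 10% and 5.92% of all measured genes. EGR1 had 595 and 194 counts, the constitutive chaperone HSPA8 had 3386 and 1122, and HSPA1A and HSPA1B, near-identical inducible chaperones, had 1444 and 232, and 513 and 159. Not all members lay that way, since ATF3, FOSL1 (125 and 565) and FOSL2 (204 and 618) were higher. HSPA1A, at -2.80 in A498, was lower in 549 and A375 too, at -3.13 and -1.59. CLDN2, a tight junction protein with 95 and 11 A498 counts, had -3.07 in A498 and -3.29 in 549.

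The other 8 genes among the 12 lowest had 97 to 230 untreated counts. STAB1, a scavenger receptor, had 108 counts untreated and 15 treated, METTL7A had 116 and 14, CSRNP3 had 111 and 14, and the actin-binding LIMCH1 had 230 and 37. SMO, the Hedgehog signal transducer, had 108 and 17. The noncoding RNAs DANCR and LINC01151 had 97 and 15, and 101 and 6. FAM227A had 116 and 19.

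Abundant metabolic enzymes were among the lower genes. AKR1B10, an aldo-keto reductase known as an NRF2 target, had 19318 counts untreated and 5319 treated, 0.245 of the untreated level (0.238 to 0.253). AKR1C3 had 5268 and 1205 (0.204, 0.191 to 0.217), AKR1C2 had 10588 and 3687, and AKR1C1 had 12406 and 6650. All 4 measured AKR1C genes were lower, and they are alike enough to share reads. AKR1C2 had log2 ratios of -1.69 in A498, -2.09 in A375, -1.24 in 549 and -1.59 in H1703 (28 and 9 counts). ALDH1A1, a retinal dehydrogenase, had 18331 and 7906, and the secreted peroxidase GPX3 had 1370 and 567. The log2 ratio of ALDH1A1 was -1.38 in A498, -2.31 in A375, -0.27 in 549 and 0.23 in H1703. CD24, a surface glycoprotein named after its values were seen, had 6251 and 1493. Together, 5 of 15 measured tubular transport and metabolic genes were lower (33.3%) and 2 higher (13.3%), with a median of -0.61. Over all measured genes 5.92% were lower and 10% higher, so the higher share lay near that of all genes. Among the higher ones was PCK2, at 33 and 187 counts.

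Of 16 NRF2 targets 3 were lower (18.8%, against 5.92% of all measured genes) and 0 higher, with a median of -0.53. Besides AKR1B10 these were HMOX1, the haem oxygenase, with 764 and 267 counts, and GCLC, with 290 and 149. NQO1 and TXNRD1, also classical targets, lay within 2-fold at 8029 and 6290, and 6812 and 8236. A375 had a median of 0.17 on the same list, with TXNRD1 at 2.55 against 0.11 in A498.

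Of 21 measured cholesterol synthesis genes 6 were lower (28.6%, against 5.92% of all measured genes) and 0 higher, with a median of -0.75. MSMO1 had 1033 counts untreated and 435 treated, and HMGCS1 had 1090 and 537. Of 37 proliferation genes 0 were higher and 0 lower, with a median of -0.44 against -1.25 in A375. MKI67 had 2284 and 2735 counts and TOP2A had 8637 and 7143. Of 23 respiratory chain subunits 1 was lower (median -0.35), which is 4.35%, against 5.92% of all measured genes.

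All 28 cytosolic ribosomal protein genes had log2 ratios below 0, from -0.23 to -1.25, with a median of -0.55 and 1 past 2-fold (RPL7A, 9289 and 4384 counts). A498 had the lowest ratio of the 4 lines for 26 of the 28, while over all measured genes it was lowest for 26% (3089 of 11872). Their summed CPM in A498 was 37700 untreated and 26000 treated. The 15 housekeeping genes had 0 past 2-fold and a median of -0.25. CPM here carry a TMM scaling factor for each library, so they are not plain shares of a library. By library size alone the ribosomal median in A498 was -0.65, and the median over all measured genes was -0.11. With TMM the median over all measured genes was -0.01. The antiviral list in A498 had a summed CPM of 32000 treated against 2490 untreated. Whether that rise had a part in the ribosomal ratios was not tested.

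Hypoxia-inducible factor targets lay both ways, with 4 of 22 measured members higher, 1 lower and a median of 0.07. These are 18.2% and 4.55%, against 10% and 5.92% over all measured genes. STC2 had 224 counts untreated and 2059 treated, and VEGFA, the angiogenic factor, had 1227 and 4031. NDRG1 had 10449 and 4548, a log2 ratio of -1.37, while A375 had 0.76. Most others, such as SLC2A1 (1072 and 1274) and LDHA (11365 and 9684), stayed within 2-fold.

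In the kidney lineage list 2 of 14 measured genes were higher and 2 lower. Each is 14.3%, against 10% higher and 5.92% lower over all measured genes. CDH6, a cadherin of the proximal tubule and of kidney carcinoma, had 381 counts untreated and 88 treated, 0.206 of the untreated level (0.161 to 0.260), and 549 had a like log2 ratio (-2.26 in A498, -2.47 in 549). MME (CD10) had 69 and 21. ANPEP, a brush border peptidase, had 440 and 1720, and the keratin KRT7 had 6 and 46.

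Epithelial-mesenchymal and matrix genes had 7 of 27 measured members higher (25.9%, against 10% of all measured genes) and 0 lower, with a median of 0.59. The collagen receptor chain ITGA2 had 70 counts untreated and 414 treated, and the transcription factors ZEB1 and ZEB2 had 267 and 687, and 251 and 794. CDH1 had 1 and 0 counts. Growth factor and MAPK feedback genes had 8 of 22 measured members higher (36.4%) and 2 lower (9.09%), with a median of 0.77. Over all measured genes the shares were 10% and 5.92%. AREG, an EGFR ligand, had 98 and 706 counts and the kinase AXL had 644 and 2170.

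Symbols of the SNAR family, near-identical small noncoding RNA genes, had 23 measured members, all of them higher, and the reads of 1 member can be counted for another. Measured LOC symbols had 17 of 137 higher and 6 lower, and LINC symbols 14 of 85 higher and 11 lower. Over all measured genes 10% were higher and 5.92% lower, so the LOC shares lay near those of all genes.

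The second comparison asks where the A498 response stood apart from the other lines. By the same rule, 11.1% of measured genes were higher and 9.08% lower in A375, 6.88% and 7.67% in 549, and 2.62% and 0.579% in H1703. Of the 1187 A498-higher genes, 466 were also higher in A375 (39.3% of the A498 genes, 34.2% of the A375 genes). The overlap was 343 with 549 (28.9% and 42.2%) and 207 with H1703 (17.4% and 67.2%). Of the 764 higher genes with enough counts in all 4 pairs, 104 (13.6%) were at least 2-fold higher in all 3 other lines and 291 (38.1%) in none. Among the lower genes, 169 were also lower in A375 (24% of the A498 genes, 15.2% of the A375 genes), 184 in 549 (26.2% and 20.3%) and 13 in H1703 (1.85% and 19.1%). Of 473 lower genes with enough counts, 2 (0.423%) were lower in all 3 other lines and 268 (56.7%) in none. The counts shared with all 3 other lines cannot exceed the H1703 calls, which were 308 higher and 68 lower. The shares in none have no matching share over all genes here, so they do not measure a response particular to A498. Across 9961 genes the A498 log2 ratios had Pearson correlations of 0.57 with A375, 0.57 with 549 and 0.55 with H1703, and Spearman correlations of 0.49, 0.46 and 0.37. These describe genes that share the same libraries, and genes are not independent replicates.

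A log2 ratio beyond all 3 other lines by at least 1 was seen for 148 genes above (1.39% of 10664 with enough counts) and 103 below (0.966%). A375 had 2.38% above and 1.79% below, 549 had 0.73% and 1.24%, and H1703 had 0.651% and 1.04%. On the higher side the A498 share was below that of A375 and above those of both lung lines, and on the lower side it was below all 3. Beyond GBP5, ADAP1 and IFITM1, the largest gaps above were those of GCH1, TRAF1 and USP18. GCH1, which makes the cofactor tetrahydrobiopterin, had 4 counts untreated and 152 treated in A498 and 36 and 7 in A375. TRAF1, an NF-kB target and adaptor, had 16 and 1000 in A498, 273 and 220 in A375, and 27 and 170 in H1703. MLXIPL, a glucose-sensing transcription factor, had 10 and 68, and STOML1 had 31 and 334. Several of these gaps rest on few counts in some libraries. GBP5 had 1 untreated count in each line, MLXIPL had 20 and 1 counts in A375, and STOML1 had 10 and 18 in H1703.

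On the lower side, the largest gap was that of PDE5A, a cyclic GMP phosphodiesterase, with 101 counts untreated and 17 treated in A498. Its log2 ratio was -2.60, against -0.04 to 0.84 in the other lines. APOL1 and FOS followed. The mitochondrial factor MTERF2 had 77 and 10, MAP7D2, a microtubule-binding protein, had 919 and 273, and RIC3 had 67 and 9. Those of FAM227A, RAPGEF5 (46 and 11), SLC25A29 (56 and 13) and ZBED8 (51 and 14) rest on few treated counts. The same holds for PDE5A, MTERF2 and RIC3, and PDE5A also had few counts in A375 (11 and 15) and 549 (8 and 14). Chosen after their values were seen, HES1, a Notch target, had 1223 and 368 counts, and ACTA2, which overlaps an antisense gene, had -0.24 in A498 and 1.28 to 2.15 elsewhere.

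**Figure D5:**
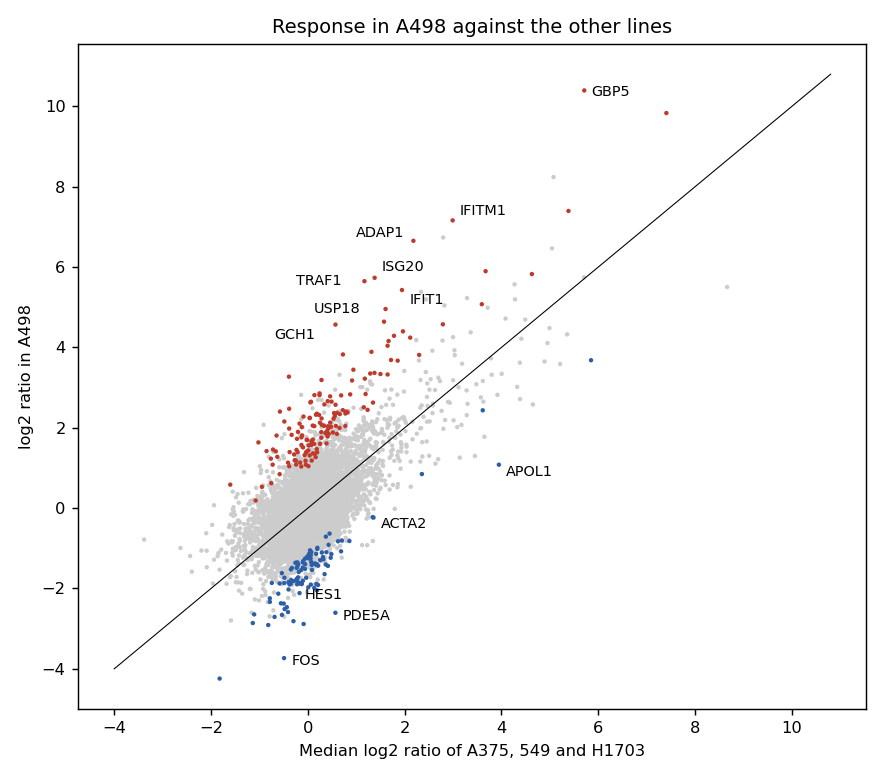
log2 ratio of CPM in A498 (vertical) against the median of the other 3 lines (horizontal) for genes with enough counts in all 4 pairs, 1 pair of libraries a line. Red and blue points are the 148 and 103 genes at least 1 above or below all other lines, and the line marks equal ratios.

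The difference in response between A498 and the other 3 lines was tested in 1 model over all 8 libraries, in which A498 is a single pair assumed to vary like the others. With edgeR's quasi-likelihood test and Benjamini-Hochberg adjustment, 0 of 13457 genes (0%) passed an adjusted p of 0.05, and the smallest adjusted p was 0.425. At an unadjusted p under 0.05 there were 585. DESeq2 called 19 and limma-voom 0. A count of 0 does not show an equal response, since 2 residual degrees of freedom carry the test. The A498 pair is fitted by its own terms, so the spread behind the p-values comes from how the other 3 lines differ in response. The p-values say nothing of the spread between cultures of A498.

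The genes with the smallest edgeR p include some that had few counts in untreated A498. CSAG3, a cancer-testis gene with near-identical copies, had 1 count untreated and 174 treated in A498, 426 and 424 in A375 and 467 and 649 in H1703. Its edgeR log2 difference was 6.92 ± 0.80 (SE, adjusted p = 0.425, quasi-likelihood test). FYB, an adaptor of immune cells, had 2 and 106 counts in A498, 104 and 90 in A375, 487 and 654 in 549 and 2 and 5 in H1703. BMF, a BH3-only death gene, had 0 and 14 in A498, too few to be measured. Its counts were lower in the other treated lines, with 198 and 38 in A375, 20 and 4 in 549 and 24 and 6 in H1703. TNFRSF11B (osteoprotegerin) had more counts in A498 than elsewhere and a lower ratio, with 919 and 492 counts in A498 and 20 and 210 in A375 (edgeR difference -4.45 ± 0.62, SE). The 549 pair held 1 and 3 counts and the H1703 pair 0 and 1, so the difference rests on A375, without which the gene did not pass the count filter. On the authors' log2 values limma gave -2.90. TIMP3, an inhibitor of matrix proteases, had 33 and 2 counts in A498, too few to be measured, and 11960 and 41799 in A375.

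For IFITM1 the edgeR difference was 4.82 ± 0.77 (SE, quasi-likelihood adjusted p = 0.477), and DESeq2 gave 4.73 (Benjamini-Hochberg adjusted p = 6.65e-05). Over all alternatives its adjusted p ran from 1.93e-05 to 1. IFIT1 had 3.41 ± 0.55 by edgeR, and 3.40 by DESeq2 (adjusted p = 0.00144, range over the alternatives 0.000183 to 1). APOL1 had -2.79 ± 0.48 by edgeR, and -2.80 by DESeq2 (adjusted p = 0.00148, range 0.0011 to 1). The size was thus nearly the same by either tool and the call was not. DESeq2 also called ISG20 (3.99), USP18 (3.75), TRAF1 (4.64), TNFSF13B (4.66), TNFAIP3 (2.62), IFITM2 (3.14), DDX60L (2.54) and the RNA exonuclease XRN1 (2.26), with a higher ratio in A498, beside CSAG3 (7.06), FYB (5.21), PKDCC (2.57) and CCDC109B (2.35). On the negative side it called FOS (-2.91), whose log2 ratio was below 0 in every line and lowest in A498, and TIMP3 (-5.97) and TNFRSF11B (-4.35), which were lower in treated A498 and higher in treated A375. DDX60L, XRN1, PKDCC and CCDC109B are named because DESeq2 called them.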

How the data were processed

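RNA was sequenced from 4 cell lines, untreated or with IFN-gamma, 8 libraries in all, grouped by their labels. Per the labels' protocols RNA came from TRIzol extracts. A SMARTer stranded kit with poly(A) selection and a 3' QuantSeq kit are both listed, and it is open which one applies. Bowtie2, edgeR and hg19 are named in the submitters' processing notes, with versions, annotation, counting tool and use of strand not given in the sources used here, so overlapping, antisense and near-identical genes are uncertain. The authors deposited whole-number counts for each gene together with log2 normalized values, which behave like log2 of 1 plus a scaled count. Counts were used for every main value and the authors' log2 values for alternatives. The table has 25737 rows, and rows of 286 repeated symbols were summed to 24462 symbols.

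Counts were scaled by TMM over all 8 libraries (edgeR 4.0.16, R 4.3.3). The log2 ratio of CPM carries a prior count of 2, and a gene counts as measured with at least 50 counts in the A498 pair. Fold intervals are exact 95% binomial (Clopper-Pearson) and cover counting error only. Against 0 untreated counts a fold is a lower bound with 3 counts. Genes at least 1 beyond all other lines were counted among those with at least 20 counts in each other pair. Medians and highest or lowest counts of lists cover all measured members unless that limit is named, and a ratio from a pair under it is set largely by the prior count. The response of A498 was tested against the other 3 lines by edgeR's quasi-likelihood interaction test, with cell line as a term since the labels pair the libraries by line, filterByExpr (minimum count 10, total 15) and Benjamini-Hochberg adjustment at 0.05. DESeq2 1.42.0 and limma 3.58.1 served as alternatives, beside other scalings, filters, prior counts and leaving out lines. The SE beside an edgeR difference is the size of that difference divided by the square root of its F statistic. It is not an estimate given by the model. The code was tested on simulated data.

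The text draws on the 20 highest and 12 lowest ratios among genes with at least 100 counts, up to 6 members of each of 31 gene lists, 16 genes taken whatever their values, up to 10 genes a side beyond all other lines and up to 5 a side with the smallest interaction p. List members outside these are given as context, and 2 further lists, of interferon genes and of immediate early and heat shock genes, were chosen after their values were seen. The members and all lists were chosen with earlier results of these data known. Promoters are RefSeq sequences of GRCh38.p14, used for their letters only since the counts use hg19. Values of a few genes are left out of the text.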

Additional observations from a re-analysis of the deposited data

Results flagged for a closer look

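Values of the 4 lines or of 4 libraries were screened in 47 groups for one that stood apart from the rest, which chance gives in about 1 in 20 groups, and 2 were picked out. Both were in A375. Its untreated library had a total count of 9291154, the highest of the untreated libraries. IRF1, the transcription factor, had a log2 ratio there of 5.61, while A498 had 4.22, 549 had 4.41 and H1703 had 4.18.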

How the results depend on the processing

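With no filter on counts 2572 genes were higher and about 1.7e+03 lower in A498, and at a 4-fold limit 359 and 84. With a pair total of at least 200 counts the lower genes numbered 388, and those below all other lines by at least 1 numbered 60. Other scalings, prior counts and the authors' log2 values kept these counts within 1.5 times, the last giving 161 genes above and 96 below all other lines (added after seeing the data). Also added then, a limit of 20 counts in every other pair left 4 in place of 9 chemokines with their highest ratio in A498. For the response of A498 against the other lines, edgeR called 31 genes with no filter and 71 by its likelihood ratio test, and DESeq2 called 19. Leaving out each other line gave 0 to 2 calls. Cell line pairs the libraries, and without that replicate block 0 genes were called (55 at an unadjusted p under 0.05). The cause of these differences was not tested. Of 159 named genes past 2-fold, 155 to 159 stayed past it under the 6 settings of scaling, prior count and normalized values, and 0 changed sign. Many of these genes were named for large ratios. The scalings moved the median over all measured genes only from -0.01 to -0.11, so a changed sign was hardly possible and its absence shows little. Of list medians, the guanylate-binding proteins ranged from 5.30 with a prior count of 5 to 6.95 with 0.5. With 1 library in each arm no value of the A498 pair has a replicate check, and genes with few counts have wide counting intervals.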
